A study of Mus musculus with 6 samples.

Results

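The 10 genes described here encode the proteins that license DNA for replication, together with the sliding clamp of the fork. They are Orc1, Cdc6, Cdt1, Mcm2, Mcm3, Mcm4, Mcm5, Mcm6, Mcm7 and Pcna, taken by symbol from the 21887 protein-coding genes that RefSeq places on the mouse nuclear chromosomes of GRCm38.p6. They were examined in wild-type B16 cells, a mouse melanoma line grown in culture, by CUT&Tag, which uses an antibody held on chromatin to recruit a transposase that cuts and tags the DNA around it. Peaks deposited by the authors were used for 1 library of H3K4me3 (trimethylated lysine 4 of histone H3, found at active promoters) and 1 library of p300 (a histone acetyltransferase, the product of Ep300, that is recruited to active promoters and enhancers). The labels give 1 cell line, no treatment and no replicate for either antibody. The titles of another 4 libraries, for H3K9me3, name wild-type cells and cells without Tdg, Trp53 or both. They were not analysed here, and no genotypes were compared. With 1 library per antibody no spread between replicates could be measured, and no p-value was computed.

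Replication origins are prepared in the G1 phase of the cell cycle. The origin recognition complex, of which ORC1 is the largest subunit, binds DNA and recruits CDC6 and CDT1, which load the ring-shaped helicase made of MCM2 to MCM7 around the double strand. In S phase the helicase is activated and unwinds DNA, and PCNA, a ring loaded at the primer, tethers the polymerases to the template. Transcription of these genes rises towards S phase and is a textbook case of control by E2F factors and the retinoblastoma protein. In cycling cells CDT1 is degraded once replication begins, through a ubiquitin ligase that recognises it on PCNA.

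RefSeq promoter windows of GRCm38.p6, running from 250 bp before to 50 bp after a start, were available for 9 of the 10 genes, with 2 starts for Mcm7. Mcm4 had no window in the table. The sequences below are shown for the words in capitals, which resemble E2F sites. The H3K4me3 peaks described next cover every window with a word in full, so any word there lies under a peak. The words searched on both strands were TTTCGCGC, TTTGGCGC, TTTCCCGC, TTTGGCGG, TTTCGCGG and TTTCCCGG. In Mcm5 and Mcm6 a word on one strand overlaps a word on the other, and the capitals run through both. The whole windows of Mcm6, with 3 words, and of Pcna, with none, are given along the strand of the gene at chr1:128359656-128359955 (minus strand) and chr2:132253131-132253430 (minus strand).
Mcm6: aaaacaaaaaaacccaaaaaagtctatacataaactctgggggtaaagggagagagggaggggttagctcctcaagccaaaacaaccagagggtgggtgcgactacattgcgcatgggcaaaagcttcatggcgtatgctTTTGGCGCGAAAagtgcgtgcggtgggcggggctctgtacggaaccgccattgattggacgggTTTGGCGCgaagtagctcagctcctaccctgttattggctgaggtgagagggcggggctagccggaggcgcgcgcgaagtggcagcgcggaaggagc
Pcna: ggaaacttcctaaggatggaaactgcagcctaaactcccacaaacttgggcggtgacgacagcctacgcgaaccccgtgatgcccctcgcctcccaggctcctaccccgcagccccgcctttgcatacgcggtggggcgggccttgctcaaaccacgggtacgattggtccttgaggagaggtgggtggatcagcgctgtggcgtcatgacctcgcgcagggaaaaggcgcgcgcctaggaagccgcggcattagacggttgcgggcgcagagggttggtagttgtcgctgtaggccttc

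For each of the other 6 genes with a word, 1 stretch of 40 bases around a word is given in the same way. The stretches leave out a further word in Cdt1 and another in Mcm7. They come from chr4:108579411-108579450 (Orc1, plus strand), chr11:98907997-98908036 (Cdc6, plus strand), chr8:122567995-122568034 (Cdt1, plus strand), chr1:20820263-20820302 (Mcm3, minus strand), chr8:75109340-75109379 (Mcm5, plus strand) and chr5:138171844-138171883 (Mcm7, minus strand).
Orc1: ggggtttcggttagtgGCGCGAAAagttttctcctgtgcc
Cdc6: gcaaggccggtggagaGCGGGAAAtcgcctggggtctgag
Cdt1: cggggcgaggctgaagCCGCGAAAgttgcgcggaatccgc
Mcm3: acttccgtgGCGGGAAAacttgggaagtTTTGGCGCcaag
Mcm5: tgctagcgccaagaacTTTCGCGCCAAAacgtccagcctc
Mcm7: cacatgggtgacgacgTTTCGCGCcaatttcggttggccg

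H3K4me3 marked the start of every gene whose start was known, and p300 marked 5 of the 10 genes. A peak within 1 kb of an annotated end of the gene was found for H3K4me3 at 9 of the 10 (50.5% of all protein-coding genes had one) and for p300 at 5 of the 10, namely Mcm4, Mcm5, Mcm7, Cdt1 and Pcna (13.5% of all protein-coding genes). At Mcm4, Mcm7 and Pcna the p300 peak also lay within 1 kb of an end of another protein-coding gene. Orc1 was the gene without H3K4me3 at an end. Its RefSeq start lies 3749 bp inside the annotated gene, and an H3K4me3 peak covered that start. Measured from RefSeq starts, 9 of 9 genes had H3K4me3 within 1 kb (52.8% of 17492 genes) and 4 of 9 had p300 (14.4%). An H3K4me3 peak overlapped the body of 10 of 10 genes (57.3% of all) and a p300 peak that of Mcm4, Mcm7 and Pcna, 3 of 10 (17.3%). With the summit required inside the gene, the counts were 8 of 10 for H3K4me3 (47.5% of all) and 2 of 10 for p300 (14.5%), without Mcm4. Among genes with H3K4me3 at an end, p300 was also at an end of 5 of 9 members and of 26.5% of all genes. No p300 peak was detectable within 1 kb of an end or start of Orc1, Cdc6, Mcm2, Mcm3 or Mcm6 at this depth.

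**Figure D1:**
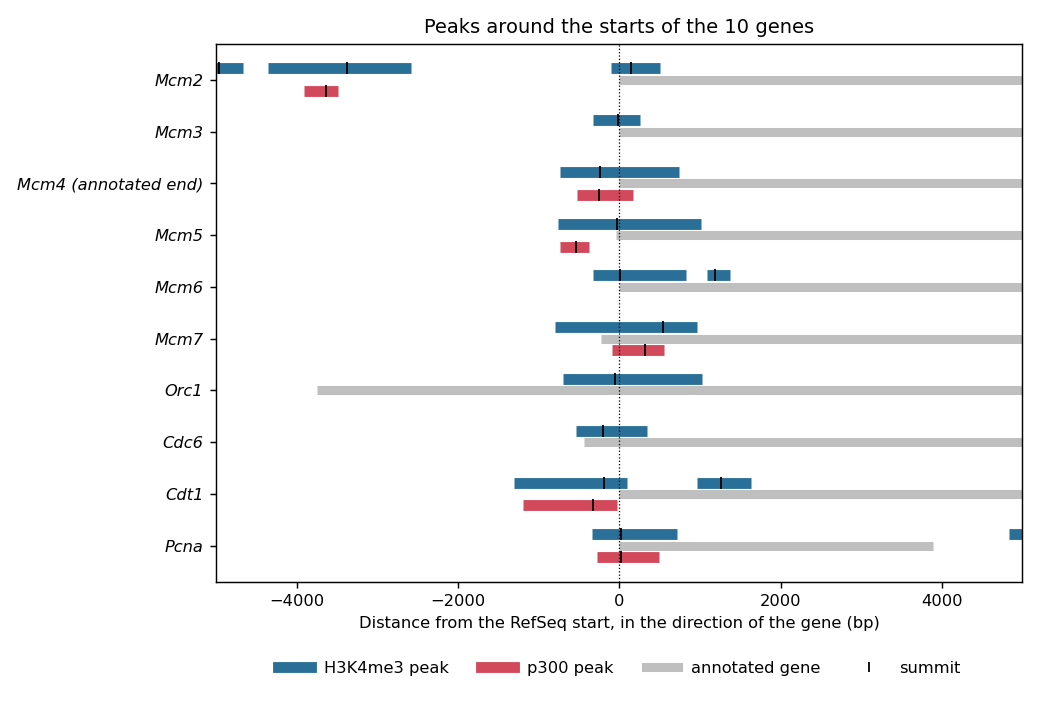
Peaks within 5 kb of the start of each gene, drawn along the direction of the gene, with distance in bp on the x axis, H3K4me3 peaks in blue, p300 peaks in red, annotated genes in grey and summits as black ticks. Mcm4, which has no start in the table, is drawn with the annotated end that carried its peaks taken as its start, and Mcm7 from the start farther upstream. H3K4me3 covers the start of 9 of 9 genes, while p300 lies within 1 kb of an end of 5 of the 10. A further p300 peak lies 3483 bp upstream of Mcm2 and 12 bp from an end of Tpra1.

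**Figure D2:**
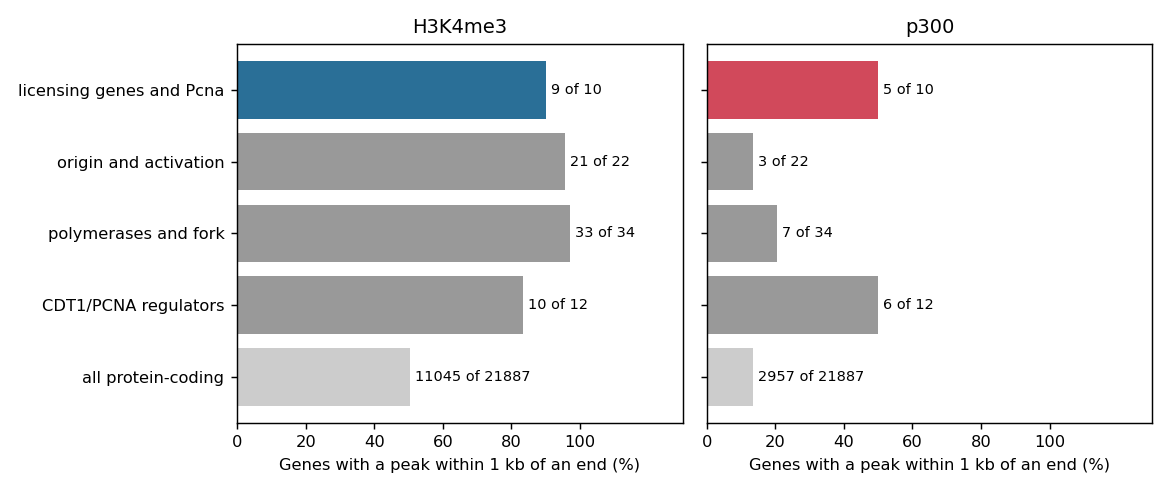
Percentage of genes with a peak within 1 kb of an annotated end (x axis, 0 to 100%), for H3K4me3 on the left and p300 on the right, with the number of genes beside each bar. The licensing genes and Pcna, with 9 of 10 for H3K4me3 and 5 of 10 for p300, are above the bars for all 21887 protein-coding genes in both panels.

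On the nuclear chromosomes there were 27019 H3K4me3 peaks and 6512 p300 peaks. The total number of reads is not in the files. The reads piled up at a summit, recovered from the authors' fold enrichment and −log10 p, had a median of 80 and a minimum of 15 in the H3K4me3 list and a median of 39 and a minimum of 14 in the p300 list. The label of a melanoma line was checked against marker genes. H3K4me3 lay at an end of 8 of 10 pigment cell markers (all but Ednrb and Mlana), 0 of 7 lymphocyte and myeloid markers, 0 of 6 epithelial markers and 1 of 6 stromal and endothelial markers, Col1a1. For p300 these counts were 5, 0, 0 and 0. Inside the gene, H3K4me3 was found in 9 of 10, 0 of 7, 1 of 6 (Cdh1) and 4 of 6 (Col1a1, Col3a1, Pdgfra and Pecam1) of these markers, and p300 in 6, 0, 1 (Cdh1) and 1 (Pecam1). Of all protein-coding genes, 50.5% had H3K4me3 and 13.5% had p300 at an end, and 57.3% and 17.3% had them inside. At an end, pigment cell markers were above these shares and the other sets below. Inside, stromal and endothelial markers were above the share for H3K4me3 (66.7%) and near it for p300 (16.7%).

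Each peak carries the authors' fold enrichment, the height of its summit over a background, and a −log10 q, which also grows with the number of reads. Both describe or rank peaks within a list and do not measure transcription. The median fold of the strongest peak at a gene end was 7.27 (quartiles 5.81 and 8.9) over 11045 genes for H3K4me3 and 5.8 (quartiles 4.93 and 6.8) over 2957 genes for p300.

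Among the genes for origin recognition and helicase loading, Cdt1 had p300 at an end and Orc1 and Cdc6 did not. Orc1 (chr4:108575705-108616030) had H3K4me3 at chr4:108578755-108580480, a peak 1726 bp wide with a fold of 8.32, a −log10 q of 96.2 and 176 reads at the summit. The peak also reached an end of Prpf38a, a gene of the spliceosome that overlaps it, so the peak cannot be assigned to either gene. Cdc6 (chr11:98907709-98923942), whose product loads the helicase with ORC and is an ATPase, had H3K4me3 at chr11:98907613-98908489 with a fold of 9.92, a −log10 q of 105 and 170 reads. That fold, at percentile 85.5 of genes with a peak at an end, was the highest among the strongest peaks at an end of the 9 members. Cdc6 had no p300 peak nearer than 112688 bp.

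Cdt1 (chr8:122568015-122573130), the gene of the helicase loading factor, carried both marks upstream of its start. Its H3K4me3 peak at chr8:122566713-122568109 had a fold of 5.14, a −log10 q of 79 and 218 reads. The fold stood at percentile 15.5 and the reads at percentile 89.5, and the background there was 41.6 reads, against a median of 16.8 over all genes with a peak at an end. A second H3K4me3 peak at chr8:122568980-122569650, inside the gene, had a fold of 3.25. The p300 peak at chr8:122566825-122567988 ended 27 bp before the gene, and at 1164 bp it was the widest of the 5 p300 peaks at a member's end, with a fold of 6.44, a −log10 q of 38.3 and 86 reads.

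Of the 6 genes for the helicase ring, Mcm4, Mcm5 and Mcm7 had p300 at an end and Mcm2, Mcm3 and Mcm6 had none. Mcm4 (chr16:15623897-15637400) had the highest −log10 q for H3K4me3 among the 9 members' strongest peaks at an end, 169 at percentile 98.5, in a peak at chr16:15636663-15638141 with a fold of 9.59 and 283 reads. Its p300 peak at chr16:15637225-15637923 had a fold of 9.18, rank 109 of 2957 genes, a −log10 q of 26.3 and 42 reads. Both peaks also covered the end of Prkdc, which encodes the catalytic subunit of the DNA-dependent protein kinase of double-strand break repair and whose nearer end lies 44 bp from Mcm4. Both summits lay beyond the annotated end of Mcm4 and inside Prkdc. The marks at this pair of genes cannot be told apart.

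Mcm7 (chr5:138164583-138172111) likewise shared its peaks with a neighbour, Ap4m1, the gene of a subunit of an adaptor complex of vesicle transport, whose end lies 90 bp away. The H3K4me3 peak at chr5:138170920-138172679 spanned both RefSeq starts of Mcm7 and had a fold of 6.19, a −log10 q of 101 and 235 reads. The p300 peak at chr5:138171332-138171973 lay between and partly over the windows of both starts, with a fold of 7.07, a −log10 q of 22.9 and 46 reads. Mcm5 (chr8:75109468-75128439) had H3K4me3 at chr8:75108751-75110525, 1775 bp wide, with a fold of 7.54, a −log10 q of 80.9 and 159 reads. Its p300 peak at chr8:75108779-75109129 was the weakest of the 5 at a member's end, with a fold of 3.48 at percentile 1.83, a −log10 q of 6.76 and 31 reads, and stopped 339 bp short of the gene.

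Mcm7 also hosts 3 microRNA genes, Mir25, Mir93 and Mir106b, known as the miR-106b-25 cluster, whose mature sequences are shown because 2 of them share a seed. The seed, bases 2 to 8 from the 5′ end, is in capitals, and the sequences are from RefSeq (GRCm38.p6, chr5, minus strand). The H3K4me3 peak nearest to the 6 mature microRNAs of the cluster was not the one at the start of Mcm7 but a peak beyond the other end of the gene, at chr5:138160787-138161749, which was 3583 to 4038 bp from them. That peak lay downstream of the microRNAs and covered an end of the neighbouring gene Cops6.
mmu-miR-93-5p: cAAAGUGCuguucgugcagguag
mmu-miR-106b-5p: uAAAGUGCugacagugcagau
mmu-miR-25-3p: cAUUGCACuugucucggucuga

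The helicase genes without p300 at an end still had H3K4me3. Among the strongest peaks at an end, Mcm3 (chr1:20802966-20820312) had the narrowest of the 9 members for H3K4me3, 576 bp at chr1:20820061-20820636, with a fold of 9.67, a −log10 q of 77 and 125 reads. An end of the pseudogene Gm20587 lay 695 bp from that peak. Mcm6 (chr1:128331575-128359705) had a peak at chr1:128358876-128360036 with a fold of 6.94, a −log10 q of 58.2 and 121 reads, close to the medians of all genes, and a weaker one inside the gene with a fold of 3.18. Mcm2 (chr6:88883474-88898780) had the lowest fold among the strongest peaks at an end of the 9 members, 3.84 at percentile 3.87, in a peak at chr6:88898271-88898882. The same peak held 280 reads at its summit, percentile 97.9, over a background of 72.3 reads, percentile 99.7. The peaks of chromosome 6 had a median background of 15.5 reads, against 12.2 for the whole H3K4me3 list, and its part in the low fold of Mcm2 was not tested.

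Pcna (chr2:132249286-132253180), the gene of the clamp, had the highest −log10 q of the 5 p300 peaks at a member's end, 62.3 at percentile 97.3. That p300 peak, at chr2:132252686-132253450, had a fold of 9.14, rank 116 of 2957 genes, and 106 reads. The H3K4me3 peak at chr2:132252461-132253514 had a fold of 7.86, a −log10 q of 136 and 261 reads. The promoter window printed above lies entirely inside both peaks, 300 of 300 bases, and the 2 summits fell on the same base, 27 bp after the start. Both peaks also reached an end of Cds2, a gene of phospholipid synthesis, 158 bp away. A weaker H3K4me3 peak with a fold of 4.48 lay 938 bp beyond the other end of Pcna and within 1 kb of an end of Tmem230.

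**Figure D3:**
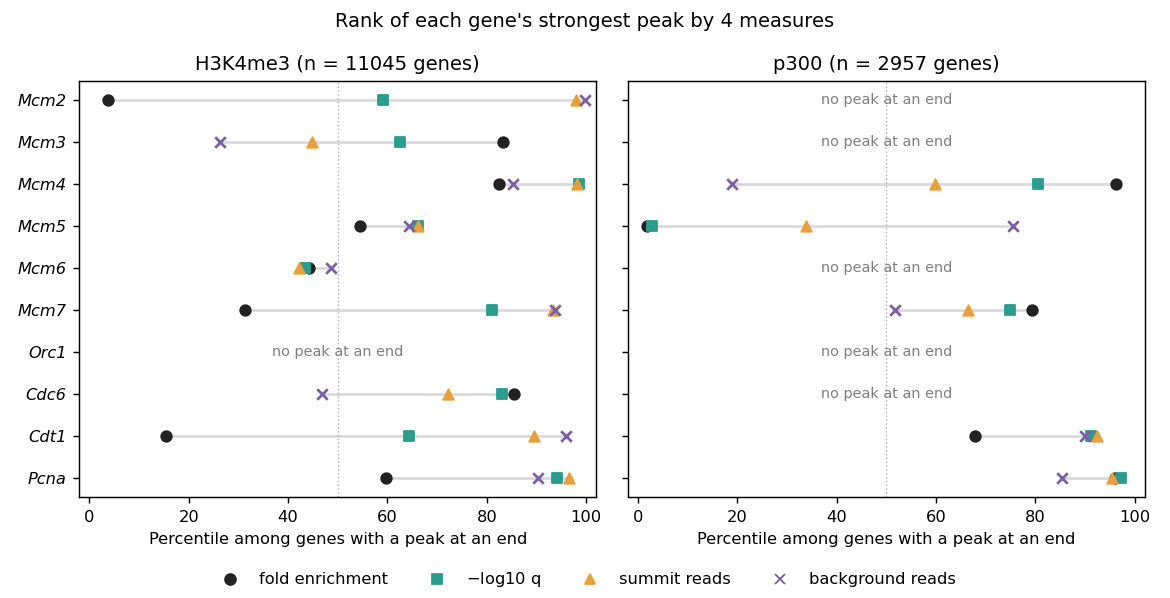
Percentile of each gene's strongest peak at an end among all protein-coding genes with such a peak (x axis, 0 to 100), for H3K4me3 (11045 genes) and p300 (2957 genes), with 1 symbol for each measure: fold enrichment, −log10 q, reads at the summit and background reads. Mcm2, Mcm7 and Cdt1 have low folds beside high read numbers for H3K4me3, while Pcna is above percentile 85 for all 4 measures of p300.

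The H3K4me3 folds of the members lay around the median of all genes, and most of their read numbers lay above it. Their median fold was 7.54, and 5 of 9 were above the median of all genes, while the median number of summit reads was 218 against 133, with 7 of 9 above. The median background was also higher, 28.6 reads against 16.8. The 5 p300 peaks had a median fold of 7.07 and a median −log10 q of 26.3, against 5.8 and 15 for all genes, and all but the peak of Mcm5 were above the median on both. H3K4me3 peaks were 1054 to 1775 bp wide at the 5 members with p300 and 576 to 1161 bp wide at the 4 without it. The ranges overlap at Mcm6 and Pcna. Over all genes the corresponding median widths were 1341.5 bp with p300 and 1031 bp without.

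The H3K4me3 summits sat close to the starts. The start was inside the peak in 9 of 9 members and in 77.8% of the 9232 genes with H3K4me3 within 1 kb of a start. The summit lay 11 bp before the start in Mcm3, 14 bp after it in Mcm6, 27 bp before it in Mcm5 and 27 bp after it in Pcna. These 4 of 9 were within 30 bp, a distance met by 10.8% of all genes. The 30 bp limit was not part of the plan and lies just above these members' values, which can favour them. In the others it lay 51 bp before the start in Orc1, 78 bp before the downstream start in Mcm7, 147 bp after the start in Mcm2, 188 bp before it in Cdt1 and 206 bp before it in Cdc6. The median distance was 51 bp in the members and 200 bp in all genes.

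Among the 4 members with p300 within 1 kb of a start, the p300 summit was 539 bp before the start in Mcm5, 322 bp before it in Cdt1 and, as above, 27 bp after it in Pcna. In Mcm7 it lay between the starts, 295 bp before the downstream one and 322 bp after the upstream one, so its direction depends on the start used. The H3K4me3 summit of Mcm7 was 539 bp after the upstream start. Set against the H3K4me3 summit, the p300 summit was 0 bp away in Pcna, 7 bp in Mcm4, 134 bp in Cdt1, 217 bp in Mcm7 and 512 bp in Mcm5. Over 2353 p300 peaks at gene ends that overlapped H3K4me3, the median gap was 174 bp (quartiles 73 and 311), 2.8% were at 0 bp and 12% within 10 bp, a limit that was not planned either. Mcm4 and Pcna were thus inside that nearest 12%, and both had an end of a neighbour under the same peak. Of the 9 members with H3K4me3 at an end, 3 shared the strongest peak with another protein-coding gene, as did 28.7% of all such genes. These were Mcm4, Mcm7 and Pcna, all of them among the 5 members with p300 at an end.

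Within 50 kb of the genes or inside them, p300 peaks were found for 8 of the 10 (44.2% of all protein-coding genes), and Mcm3 and Cdc6 were the exceptions. Such peaks were also found for 41 of 68 other replication genes (60.3%), described below in 3 lists. The share was 59.1% for origin and activation genes, 52.9% for polymerase and fork genes and 83.3% (10 of 12) for regulators of CDT1 and PCNA. The nearest p300 peak to Mcm3 was 194045 bp away. There were 5 peaks for Mcm2, 4 each for Mcm5, Cdt1 and Pcna, 2 for Mcm7 and 1 each for Mcm4, Mcm6 and Orc1, 22 in all. An H3K4me3 peak overlapped 18 of the 22 by at least 1 bp (81.8%, exact 95% binomial interval 59.7 to 94.8%), against 85.5% of the whole p300 list. The interval covers counting error only and treats the peaks as independent, although up to 5 lie near 1 gene. It is not a test of the members against the list. The 5 peaks at an end of a member all overlapped H3K4me3, and the 4 that did not lay near Pcna (2), Mcm2 (1) and Mcm6 (1).

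The other 17 peaks, with folds from 2.86 to 8.69 and a median of 4.81, were all nearer to an end of another gene, so none can be assigned to a member. For 5 of them the neighbour's end was within 1 kb: Abtb1 with Podxl2 and Tpra1 beside Mcm2, Hmox1 beside Mcm5, Zscan21 beside Mcm7 and Cc2d1b beside Orc1. These neighbours were named after their values were seen. The strongest, at chr8:75083436-75084478, lay 24990 bp from Mcm5 on the side of Hmox1, the heme oxygenase gene, with a fold of 8.69, a −log10 q of 127 and 228 reads. That is far above the p300 peak at the end of Mcm5 itself, with its 31 reads.

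**Figure D4:**
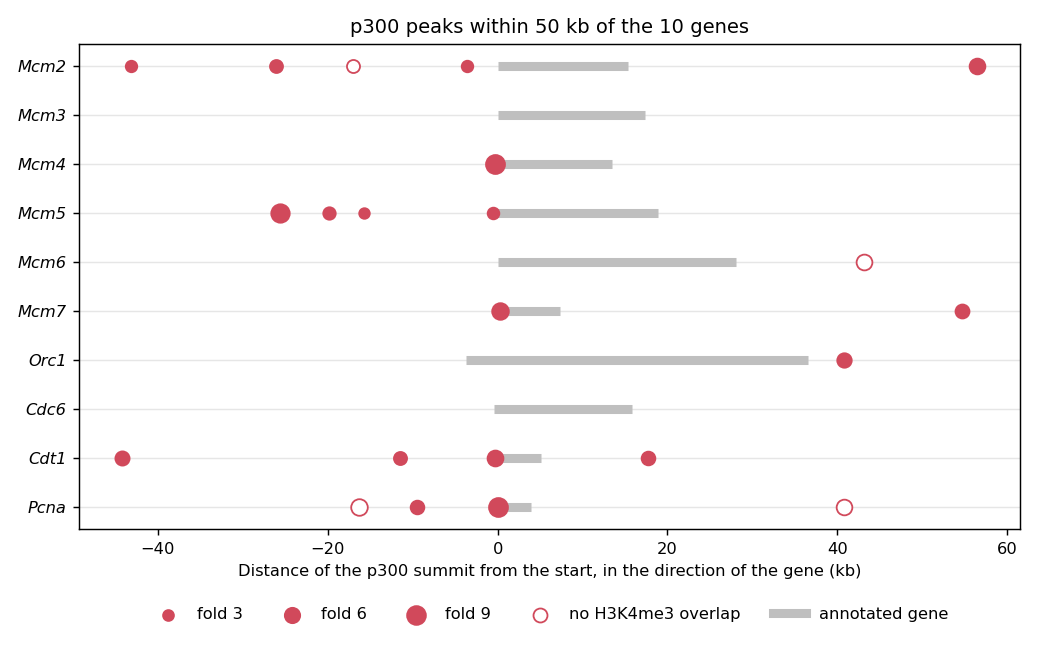
Position of every p300 summit within 50 kb of the 10 genes (x axis, kb from the start along the direction of the gene), with the area of a circle growing with the authors' fold enrichment and open circles for peaks without an overlapping H3K4me3 peak. Mcm3 and Cdc6 have none, and 4 of the 22 circles, near Mcm2, Mcm6 and Pcna, are open. Mcm4 has no start in the table, and the annotated end that carried its peaks is taken as its start.

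Words resembling E2F sites were present in 7 of the 9 genes with a promoter window, all but Mcm2 and Pcna, against 5.49% of 17492 protein-coding genes, 8.31% of those with H3K4me3 over the window and 9.41% of those with p300 over it. There were 13 words, counting overlapping ones separately, from 165 bp before to 45 bp after the start. All 13 lay inside H3K4me3 peaks, but these peaks covered all 300 bases of each window with a word. No other outcome was possible for words in these windows. Only 1 of the 13 was inside a p300 peak, in Mcm7. Among the windows with a word, p300 peaks reached only those of Cdt1 (224 of 300 bases) and the upstream start of Mcm7 (140 of 300). The words of the other genes could not lie in a p300 peak. In Cdt1 the p300 peak ended 23 bp before the first word. The distance from a word to the H3K4me3 summit ran from 24 bp in Orc1 to 697 bp in Mcm7, with a median of 115 bp. A match of letters does not show a factor bound there, and the missing words in Mcm2 and Pcna say nothing of E2F at these genes.

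The other promoter words searched were found in larger shares of all genes. CCAAT, the box of the factor NF-Y, was in 7 of 9 genes (42.3% of all genes), all but Cdc6 and Cdt1. The GC box GGGCGG was in 7 of 9, all but Cdc6 and Mcm5, against 49.2% of all genes and 70.4% of those with H3K4me3 over the window. The cell cycle homology region, searched as TTTGAA or TTCGAA, was in Mcm2 and Mcm7 (20.2% of all genes). The E-box CACGTG was in 0 of 9 (8.91% of all genes) and the p53 half-site in 0 of 9 (8.54%). A CCAAT box of Mcm7 overlaps an E2F word there by its first base. The windows had a median GC content of 57.5% and a median CpG ratio, observed over expected, of 0.935, against 61.3% and 0.782 for windows with H3K4me3. The window of Mcm3 was lowest on both, at 48.7% and 0.452.

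**Figure D5:**
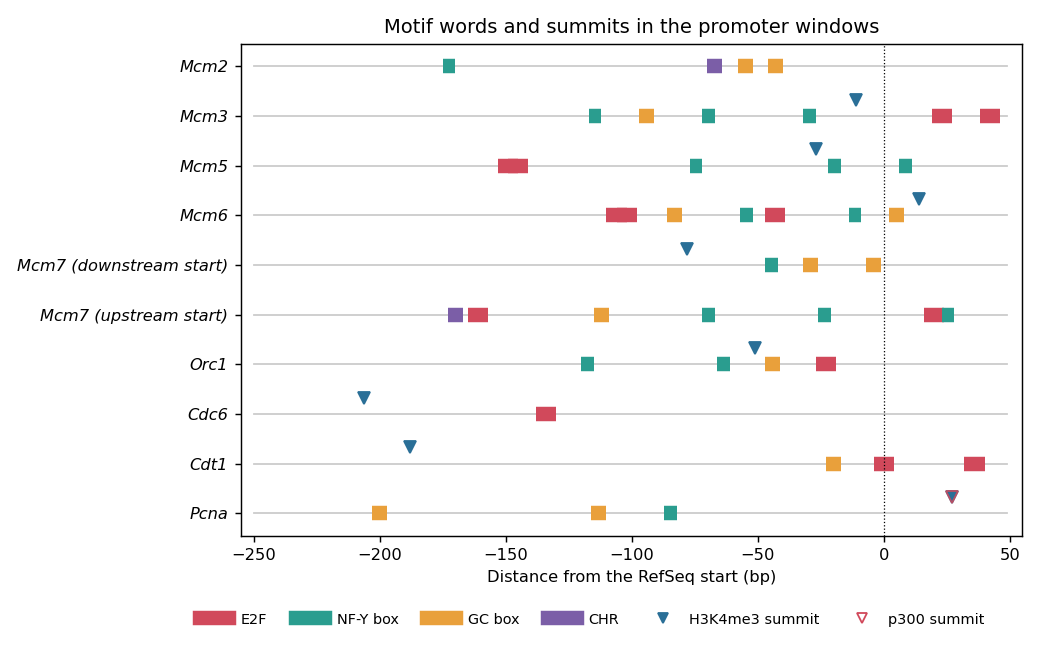
Motif words (coloured bars) and the summits of H3K4me3 and p300 (triangles) in the RefSeq promoter windows of 9 genes, by distance from the start in bp, from 250 bp before to 50 bp after it; Mcm7 has 2 windows, and the NF-Y box is the pentamer CCAAT. E2F words lie in 7 genes and are missing from Mcm2 and Pcna, and the 2 summits of Pcna coincide 27 bp after the start.

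The licensing genes were set beside 68 other replication genes in 3 lists. Of these, 64 (94.1%) had H3K4me3 within 1 kb of an end, and the other 4, Cul4b, Orc4, Rfc1 and Skp2, had it farther inside. A p300 peak lay within 1 kb of an end in 16 (23.5%), and so in 25% of the 64, near the 26.5% of all genes with H3K4me3 at an end. Among 22 genes for origin recognition, licensing control and helicase activation, p300 was at an end of 3, with a fold of 9.01 at Orc6, 7.23 at Cdc45 (the helicase activator) and 6.48 at Orc2. Among 34 genes for polymerases, clamp loaders and fork proteins it was at 7, led by Chaf1b (a subunit of the chromatin assembly factor that binds PCNA) with 7.28, Pole2 with 6.72 and Pole4 with 6.58. Among 12 regulators of CDT1 and PCNA it was at 6, led by Dtl with 8.72, Cul4a with 7.2 and Rad18 with 6.98. DTL and CUL4A belong to the ubiquitin ligase that removes CDT1 on PCNA, and RAD18 is the ligase that ubiquitinates PCNA after damage.

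The strongest H3K4me3 peaks at an end had folds from 3.84 to 9.92 in the members, and from 3.12 to 12.58, 4 to 12.2 and 5.58 to 14.32 in the 3 lists. The highest in each list were 12.58 at Orc5, 10.96 at Cdc7 and 9.45 at Orc6, then 12.2 at Prim1 and 11.31 at both Rfc3 and Clspn, then 14.32 at Hltf, 7.99 at Shprh and 7.94 at Pclaf. The median folds of the 3 lists were 8.13, 7.46 and 6.95, against 7.54 for the members. E2F words were in 24 of the 56 other replication genes with a window (42.9%), among them Dtl, Pole2, Pole4, Orc4, Clspn, Rfc3 and Hltf.

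By the percentiles of −log10 q in both lists, the replication gene most like Mcm4 was Dtl, at a distance of 8.39 percentile points, and the most like Mcm7 was Pole4, at 3.96 points. Dtl was also the nearest to Pcna, at 13.4 points, and Chaf1b the nearest to Cdt1, at 12 points. Mcm5, with a weak p300 peak beside an ordinary H3K4me3 peak, had no near neighbour, and the closest gene was Chtf18 at 21.4 points. The next nearest were Orc6 for Mcm4 and Mcm7, Ddb1 for Mcm5, and Pole4 for Cdt1 and Pcna. These distances describe 1 library per antibody and the 16 replication genes with both marks at an end.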

How the data were processed

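Each library was made by CUT&Tag with 1 µg of antibody, 18 PCR cycles and 150 bp paired reads, per the labels' protocols. Per the submitters' processing notes, mm10 was the genome build, and the named tools include Bowtie2 2.2.5, Picard 2.22.4, Trim Galore and deepTools, with no role stated. For the peak caller, a control library or pooling, nothing is given in the sources used here. The authors deposited 1 peak list per antibody, with a score, a fold enrichment (a ratio), a −log10 p and a −log10 q for each peak, and these values were used only to describe and rank peaks within a list. PCR copies can raise them, and fragments from repeated sequence can too.

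Groups were taken from sample titles, because the genotype label reads wild type for all 6 libraries, the H3K9me3 libraries of mutant cells included. Positions came from RefSeq GRCm38.p6, the assembly of mm10. The gene table has no strand, transcripts or exons, and starts came from the promoter table. A gene counted as marked when a peak came within 1 kb of either annotated end, which can credit it with a neighbour's promoter. Overlap needed 1 bp. Peaks off the nuclear chromosomes were left out. Summit and background reads were solved from the deposited fold and −log10 p with a Poisson tail, and 99.91% (H3K4me3) and 99.7% (p300) of summits came out whole within 0.002 of the deposited −log10 p. The simulated data on which the solution was tested used the same formulas, with backgrounds lower than those at most members' H3K4me3 peaks. That test checks the arithmetic only, and not whether the deposited values follow these formulas. Intervals are exact 95% binomial ones, cover counting error only and treat peaks as independent.

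Named were the 10 genes, neighbours with an end within 1 kb of a peak at a member's end, and, in each replication list, genes without H3K4me3 at an end, the 3 highest folds for each mark, and the 2 genes most like each member with both marks. Prpf38a, at the peak over the start of Orc1, the microRNA genes inside Mcm7, and Cops6, at the peak nearest to them, fall outside this rule. So do Abtb1, Podxl2, Tpra1, Hmox1, Zscan21 and Cc2d1b, beside p300 peaks away from the members' ends. The members and lists were chosen with earlier results of these data known. Scripts used Python 3.11.15, numpy 2.4.6, pandas 2.3.3, scipy 1.17.1 and matplotlib 3.10.9. Alternatives changed the window, the end used, the peak threshold, the overlap, the measure of strength and the promoter window.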

Additional observations from a re-analysis of the deposited data

How the results depend on the processing

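Of 40 alternatives, 32 left a count or share of the report within its limits (counts within 1.5 times, shares within the binomial interval), 8 moved a value and 0 reversed one. Among the 8 were all alternatives for the median percentiles below. These limits do not cover percentiles, and small shifts such as 54.5 to 53.7 were counted as moved. The share of the members' p300 peaks that overlap H3K4me3 ran from 68.2 to 77.3% in its alternatives, against 81.8%. It was counted as unmoved because the interval is wide, 59.7 to 94.8%. The number of members with H3K4me3 at an end stayed at 9 (42.3% of all genes in the stronger 50% of peaks by −log10 q) apart from 6 in the stronger 50% by fold (34.4% of all genes). That with p300 at an end was 5 or 4, and it was 4 in the stronger 50% by −log10 q (6.5% of all genes) and by fold (6.93%). The other replication genes with p300 at an end fell from 16 to 9 in the stronger 50% of peaks by −log10 q and to 10 by fold, since fewer peaks were kept. The median percentile of the members' H3K4me3 peaks was 54.5 by fold, 66.1 by −log10 q, 53.7 by width and 89.5 by summit reads, and that of their p300 peaks was 79.3, 80.5, 60 and 66.4. Summit reads were added as a measure after seeing the data. The rank of the H3K4me3 peaks thus depends on the measure. In windows shortened to 100 bp before the start, E2F words were in 5 of 9 members and in 3.02% of all genes. Read totals are unknown, so weak peaks may be missed in either list. No paired analysis was possible because there is 1 library per antibody.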
